A study of Mus musculus with 12 samples.

Results

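The genes described here are the 84 mouse genes whose symbols name proteins of the cytoplasmic ribosome or close paralogs of them, out of 35652 genes counted. They were chosen by name and not by any measured value: symbols made of Rpl or Rps, a number and a short suffix, together with Rplp0, Rplp1, Rplp2 and Rpsa, with rows named as pseudogene copies left out. The large subunit accounts for 52 of them and the small subunit for 32. Rpl10, Rpl36a, Rpl39 and Rps4x lie on the X chromosome, and the others are spread over the autosomes. RNA was measured by SC3-seq, in which 3′ ends of amplified cDNA are sequenced, in 12 libraries that form 6 groups of 2. Male germ cells were taken from the testes of mice of genotype Vasa-RFPTg/0, in which the promoter of a germ cell gene drives a red fluorescent protein, at E16 and E17, days of embryonic development, and at P7, 7 days after birth. Germline stem cells (GSCs), the cultured counterpart of spermatogonial stem cells, came from the cell line AAG, which carries Acrosin-EGFP and beta-Actin-EGFP. They were Stag3 knockouts, as the lines KO1 and KO2, or wild type (WT), so that the knockout genotype rests on 2 lines and the transgenes are shared by all GSC libraries.

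Ribosomal proteins assemble with ribosomal RNA in the nucleolus into a small subunit, which decodes mRNA, and a large subunit, which joins amino acids. Their mRNAs are among the most abundant of growing cells and typically begin with a terminal oligopyrimidine (TOP) tract, a C at the cap followed by C and T bases, through which the mTOR pathway controls their translation. Most ribosomal proteins come from 1 expressed gene with many silent processed copies, but a few have expressed paralogs, and Rpl39l and Rpl10l are known from male germ cells, where they stand in for genes of the X chromosome that falls silent in meiosis.

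Rpl39l and Rpl39 show how close such pairs are. Their coding sequences are given because the 2 genes went opposite ways at P7 and in KO2 against WT GSCs, though both fell in E17 against E16. Capitals mark the bases at which they differ (GENCODE M21 transcripts on GRCm38, 5′ to 3′, Rpl39l from chr16:10174310-10174465 on the plus strand, Rpl39 spliced from chrX:37082701-37085127 on the minus strand).
Rpl39l: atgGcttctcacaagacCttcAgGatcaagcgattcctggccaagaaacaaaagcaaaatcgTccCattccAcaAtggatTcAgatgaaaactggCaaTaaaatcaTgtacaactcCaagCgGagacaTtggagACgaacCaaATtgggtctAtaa
Rpl39: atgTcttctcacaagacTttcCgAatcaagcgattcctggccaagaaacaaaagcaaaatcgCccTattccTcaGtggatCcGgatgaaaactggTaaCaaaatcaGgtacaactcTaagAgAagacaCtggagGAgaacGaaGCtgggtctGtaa
Each coding sequence has 156 bases, and 133 of them are identical (85.3%). The last 200 bases of either transcript, where 3′ reads fall, hold no 50-base word that another annotated transcript shares.

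Starts of genes with the clearest behaviour below are given next, to set genes with a pyrimidine run at the start beside genes without one. Each window holds 10 bases before the annotated start and 20 from it on (RefSeq, GRCm38.p6, gene strand), and capitals mark a run of C followed by at least 4 bases that are C or T, beginning within 5 bases of the start.
Rpl13a (chr7:45128726-45128755, minus strand): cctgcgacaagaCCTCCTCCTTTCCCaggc
Rpl15 (chr14:18270967-18270996, minus strand): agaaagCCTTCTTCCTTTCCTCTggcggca
Rpl27a (chr7:109519185-109519214, plus strand): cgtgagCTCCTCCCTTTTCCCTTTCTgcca
Rps27 (chr3:90213629-90213658, minus strand): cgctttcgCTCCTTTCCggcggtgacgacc
Rpl22l1 (chr3:28805498-28805527, plus strand): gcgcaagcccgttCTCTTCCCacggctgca
Rps4x (chrX:102189372-102189401, minus strand): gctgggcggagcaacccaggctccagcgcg
Rpl10 (chrX:74270806-74270835, plus strand): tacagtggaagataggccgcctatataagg
The promoter table held 64 of the 84 genes. The count at the start took a C exactly there with at least 4 C or T bases after it, also inside a longer run. It gave 14 of the 64 (21.9%), against 813 of all 27025 genes of the table (3.01%). Within 5 bases the same search gave 30 of 64 (46.9%), against 5718 of all genes (21.2%). The run was searched on the gene's own strand and did not exclude other motifs, and its absence says only that these letters are not in the window.

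Libraries held 1938644 to 4596607 counts, and levels are reads per 1000000 reads (RPM) of the 31675 non-mitochondrial genes present in both gene lists used by the deposited tables. A count of 0 allows up to 0.749 to 1.74 RPM, the level of 3 counts, which covers counting error only. Replicate numbers follow the sample titles, and the deposited files number the 2 WT libraries the other way round. Whether the 2 libraries of a group stem from different cultures or animals is not stated in the labels, and p-values reflect only the spread between libraries, which may be technical. Fold changes come from edgeR with TMM scaling, which lowers E17 relative to E16 more than RPM does. ERCC spike-in reads made up 1.22% and 1.52% of counts at E16, 0.194% and 0.231% at E17, 4.69% and 5.85% at P7, and 2.80% to 3.41% in GSCs. Whether equal amounts were added to each library is not given in the sources used here, so ERCC scaling is shown as an alternative and not as a measure of total RNA. Scaling on them puts the median of all genes at 3.02 for E17 over E16, -4.81 for P7 over E17, -0.42 for P7 over GSC WT and 2.87 for E16 and E17 over GSC WT on the log2 scale, so changes below are relative to the other genes. In bulk RNA, fewer cells of a type and less RNA per cell cannot be told apart.

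Stag3, the cohesin subunit gene targeted in GSCs, had 295 and 305 RPM in KO1, 138 and 153 in KO2 and 385 and 421 in WT. It was lower than in WT in all 4 knockout libraries but still counted, and a 3′ tag does not check which part of the gene was altered. In vivo it stood at 413 and 466 RPM at E16, 537 and 517 at E17 and 228 and 233 at P7. The label germ cell was checked by markers, and all 6 genes of the germ cell list, Ddx4 and Dazl among them, were counted in every library, with summed levels of 2588 to 3802 RPM. Markers of other testis cells were low but not absent in vivo, and erythroid genes, with 0 to 0.273 RPM summed in GSCs, reached 140.1 to 274 RPM at E16.

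Many ribosomal protein genes have near-identical processed copies, and how reads that match several places were counted is not given in the sources used here. In the last 200 bases of their transcripts, 31 of 83 genes shared no 50-base word with another gene, 34 shared over 50% of their words, and Rpl10, Rpl36a, Rpl9 and Rps27 shared all of them. Values of these 34 genes are therefore uncertain, those of the 4 most of all. Among the 34 are Rpl36 (82.1% of words shared), Rpl38 (72.8%), Rpl41 (66.9%) and Rpl15 (66.2%), which are described below. Also uncertain are values of the 18 genes that overlap another coding, long noncoding or pseudogene annotation.

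Together the 84 genes took a large part of each library, and the part was largest at E16. It was 25.1% and 28.2% of gene counts at E16, 18.2% and 18.4% at E17 and 16.06% and 16.96% at P7. In culture it was 17.4% and 17.2% in KO1, 18.1% and 17.9% in KO2, and 19.5% and 18.2% in WT. Both E16 libraries stood above all 10 others. Both KO1 libraries stood below both WT libraries, and the KO2 libraries were also below them, though KO2 replicate 1 (18.12%) came close to WT replicate 2 (18.20%). Both subunits took their largest share at E16. The large subunit held 15.7% ± 1.3 at E16, 10.7% ± 0.0759 at E17 and 9.71% ± 0.339 at P7 (SD, n = 2), and the small subunit 10.9% ± 0.942, 7.59% ± 0.0198 and 6.80% ± 0.302 at the same times. These sums are a description and were not tested.

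**Figure D1:**
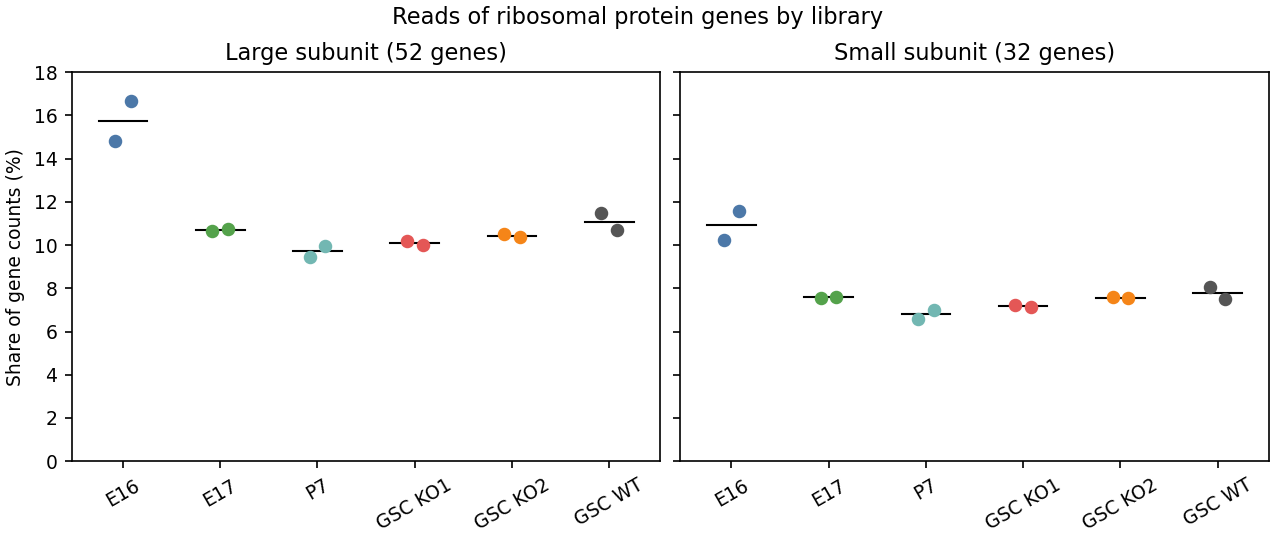
Share of gene counts, in percent, held by the 52 large subunit genes (left) and the 32 small subunit genes (right), 1 point per library, with a line at the mean of the 2 libraries of a group. Both E16 libraries lie above every other library in both panels.

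The first comparison asked how ribosomal protein genes differ between germ cells at E17 and E16, an interval in which male germ cells have stopped dividing. Relative to other genes nearly the whole set was lower at E17: 77 of the 84 fell and 0 rose (edgeR, adjusted p under 0.05), against 4.96% of all tested genes that fell and 1.64% that rose, whereas with ERCC scaling, which moves all genes up, 83 rose and 1 fell. DESeq2 called 74 lower and 0 higher. All 84 fold changes in edgeR were below 0, so that none rose at an unadjusted p under 0.05 either, with a median of -0.88 against 0.0053 over all tested genes, and 27 were lower by more than 2-fold. In RPM, which does not use the TMM factors, 76 of the 84 had both E17 libraries below both E16 libraries, against 10.5% of all genes. Without E17 replicate 1, 61 of the 84 fell, and with each other library left out 68 to 82 did. Without E16 replicate 2, the library with the highest share, the median was -0.69.

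Rpl36a, an X-linked gene of a large subunit protein next to the exit site for tRNA, had 650.0 and 737 RPM at E17 and 1707 and 1924 at E16. Both E17 libraries were far below both E16 libraries, with a log2 fold change of -1.73 ± 0.13 (SE; edgeR, adjusted p = 4.46e-06). Its reads cannot be placed uniquely by 3′ sequence, as given above. Rpl41, which encodes the shortest ribosomal protein, had 589 and 663 RPM at E17 and 1386 and 1557 at E16. The groups did not overlap, and the log2 fold change was -1.57 ± 0.14 (edgeR, adjusted p = 2.13e-05). Rpl15, a large subunit gene with a 17-base pyrimidine run across its start as printed above, had 1596 and 1813 RPM at E17 and 3429 and 3645 at E16, again without overlap (-1.39 ± 0.11; edgeR, adjusted p = 9.02e-06). With ERCC scaling these 3 genes had positive values, as did nearly all genes. Rpl32l, a gene named as a copy of Rpl32 whose annotation overlaps Map7, had no count at E17, against 5.48 and 6.0 RPM at E16, at least 3.47-fold lower at E17 when each library at 0 is set to 3 counts.

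The 7 genes with no call for E17 against E16 were Rps28, Rps29, Rpsa, Rplp0, Rpl3l, Rpl14 and Rpl22. Rpsa, the laminin receptor protein of the small subunit, had 6047 and 6040.5 RPM at E17 and 5522 and 5285 at E16, and Rps28, a small subunit protein near the mRNA exit, 1998 and 1984 at E17 and 1557 and 1801 at E16. Both genes were higher in RPM in the 2 E17 libraries, while their TMM-scaled log2 fold changes were -0.17 and -0.10 (edgeR, adjusted p = 0.348 and 0.706). Rplp0, the base of the stalk to which translation factors bind, had 4296 and 4283 RPM at E17 and 4006 and 3714 at E16. Its partner Rplp1 fell to 5154 and 5231 RPM at E17, against 7921 and 8914 at E16 (-1.04 ± 0.11; edgeR, adjusted p = 6.33e-05).

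Markers of other cells moved between the same libraries. Endothelial markers summed to 187 to 199 RPM at E17 and 144 to 163 at E16. Summed erythroid markers were 91.6 to 109 RPM at E17 and 140.1 to 274 at E16, fibroblast markers 435 to 475 RPM at E17 and 264 to 282 at E16, and Sertoli markers 186 to 194 RPM at E17 and 154 to 182 at E16, with Amh at 0 in every library. Their part in the result was not tested.

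**Figure D2:**
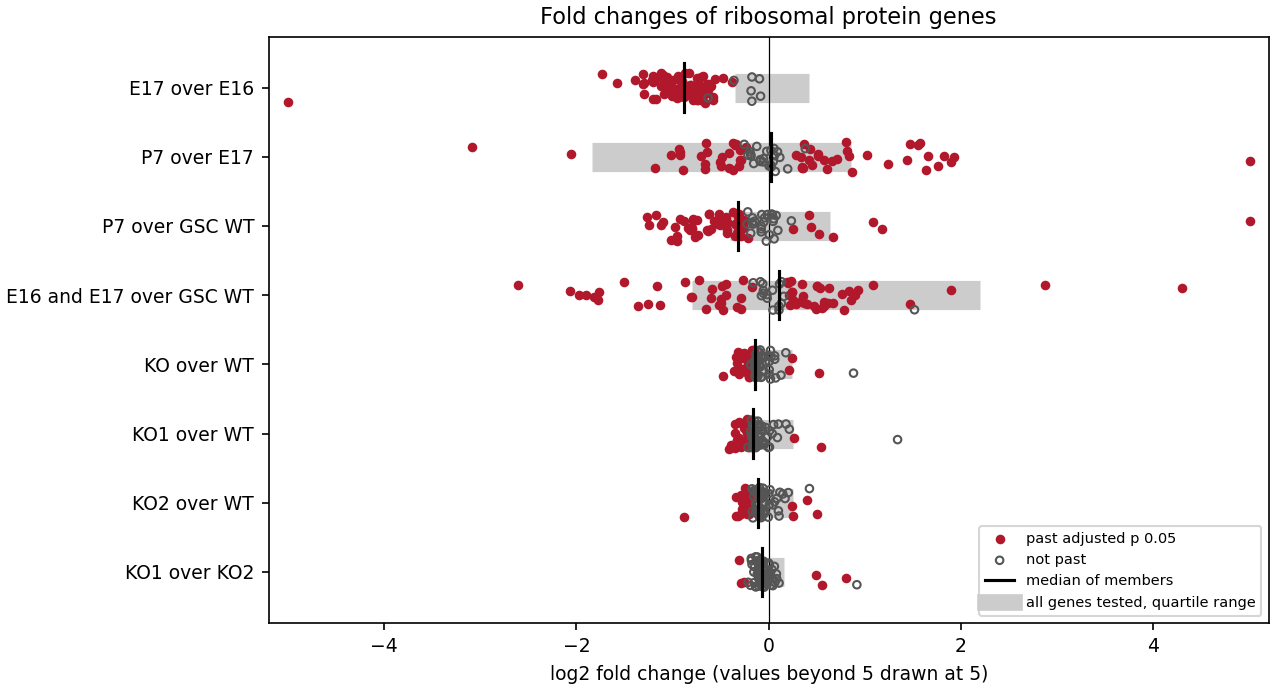
Log2 fold change of each ribosomal protein gene (points) in the 8 comparisons, filled where the edgeR adjusted p was under 0.05, with the members' median as a black line and the quartile range of all genes tested as a grey box; values beyond 5 in size are drawn at 5. For E17 over E16 every point lies below 0 under TMM scaling (ERCC scaling turns the direction), and the GSC comparisons have the narrowest spread.

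Between P7, when spermatogonia divide again, and E17 the genes no longer moved as a block. Only the P7 libraries were counted on another gene list, with mitochondrial genes blank. In every comparison with P7, stage and any difference in processing cannot be told apart. Of the 84, 32 rose and 28 fell (edgeR), close to the background of 30.2% of all tested genes that rose and 37.8% that fell. The median was 0.023, against -0.13 over all genes, and it took the other sign (-0.0349) without P7 replicate 2. The number that fell was 18 without E17 replicate 1, without E17 replicate 2 or without P7 replicate 1. With ERCC scaling 83 fell and 0 rose. Rpl22, an RNA-binding protein of the large subunit, had 1088 and 1147 RPM at P7 and 308 and 345 at E17, without overlap (1.93 ± 0.12; edgeR, adjusted p = 8.22e-09). Rps23, a protein of the decoding centre, had 2122 and 2293 RPM at P7 and 696 and 701 at E17 (1.82 ± 0.12; edgeR, adjusted p = 1.45e-08). Rpl7l1, the paralog of Rpl7, had 99.6 and 93.3 RPM at P7 and 24.4 and 33.1 at E17 (1.90 ± 0.26; edgeR, adjusted p = 1.44e-05). All 6 P7 values of these 3 genes lay above their E17 values in RPM, and with ERCC scaling the 3 fold changes were negative. Rpl32l had 9.56 and 12.1 RPM at P7 and no count at E17, at least 6.53-fold higher at P7.

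In the other direction, Rps4x, the X-linked gene of a small subunit protein, had 622 and 564 RPM at P7 and 2773 and 2731 at E17. Both P7 libraries were far below both E17 libraries (-2.06 ± 0.11; edgeR, adjusted p = 1.32e-09). Rpl3l, the muscle paralog of Rpl3, had 6.59 and 5.27 RPM at P7 and 62.0 and 50.9 at E17 (-3.08 ± 0.28; edgeR, adjusted p = 2.29e-07). Rps28 had 714 and 858 RPM at P7 and 1998 and 1984 at E17 (-1.18 ± 0.13; edgeR, adjusted p = 1.7e-06), after it had not passed the test between the fetal days. Rpl36, a small protein of the large subunit, also fell, by 1.02 on the log2 scale (edgeR, adjusted p = 2.33e-06). Cell cycle genes summed to 3815 to 4050 RPM at P7 and 1586 to 1621 at E17, and fibroblast markers to 136 to 157 RPM at P7 and 435 to 475 at E17. Their part in the result was not tested.

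Germ cells of the testis were next set against WT GSCs in culture. At P7, when the testis holds spermatogonia, 8 of the 84 rose and 52 fell relative to WT GSCs (edgeR), against 16% of all genes that rose and 15% that fell. The median was -0.32, against 0.032 over all genes, and with ERCC scaling 75 fell and 2 rose. Rpl36 had 377 and 430.1 RPM at P7 and 928 and 837 in WT GSCs (-1.26 ± 0.10; edgeR, adjusted p = 1.06e-12). Rpl37a, a zinc-binding protein of the large subunit, had 1077 and 1213 RPM at P7 and 2553 and 2393 in WT GSCs (-1.24 ± 0.094; edgeR, adjusted p = 5.54e-13). Rpl38, known for its part in the translation of Hox mRNAs in mouse embryos, had 334 and 406 RPM at P7 and 784 and 743 in WT GSCs (-1.18 ± 0.11; edgeR, adjusted p = 1.32e-10). For each of these genes both P7 libraries lay below both WT libraries. Rps21 fell by 1.12 on the same scale (edgeR, adjusted p = 6.66e-12). Genes of undifferentiated spermatogonia summed to 1229 to 1319 RPM at P7 and 645 to 672 in WT GSCs, and fibroblast and feeder markers to 136 to 157 RPM at P7 and 95.8 to 96.8 in WT GSCs. Their part in the result was not tested.

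The 8 genes higher at P7 than in WT GSCs were Rpl39l, Rpl10l, Rpl22l1, Rpl3l, Rpl32l, Rps27, Rps4x and Rplp0, of which the first 5 are paralogs or copies of another member. Rpl39l had 738 and 753 RPM at P7 and 323 and 319 in WT GSCs (1.08 ± 0.10; edgeR, adjusted p = 2.4e-11), more than 2-fold higher in each P7 library. Rpl10l rose by 0.52 (edgeR, adjusted p = 0.00013) and Rpl22l1 by 0.42 (edgeR, adjusted p = 0.000962). Rpl3l passed at 1.182 ± 0.463 (edgeR, adjusted p = 0.0485) on few reads and missed the threshold in 6 of 11 alternatives. Rpl32l had 68 counts over both P7 libraries and 1 over both WT libraries, a ratio of 83.4 per read sequenced with a 95% counting interval of 14.5 to 3341. Rps27, which pairs with the paralog Rps27l, rose by 0.67 (edgeR, adjusted p = 3.59e-06), but its 3′ end is fully shared with other genes.

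The fetal days together (the mean of E16 and E17) differed from WT GSCs in both directions. Of the 84 genes 36 rose and 31 fell (edgeR), against 41.9% and 32.3% of all genes, so the counts lay near the background. The median was 0.11 against 0.23 over all genes, and it turned to -0.0143 without WT replicate 2 and to -0.0078 without E16 replicate 2. With ERCC scaling 82 rose and 0 fell. The spread was wide. Rps4x had 3807 and 3772 RPM at E16 and 2773 and 2731 at E17, against 410.0 and 388 in WT GSCs, and every fetal library was far above both WT libraries (2.88 ± 0.090; edgeR, adjusted p = 1.63e-25). Rps27, whose start carries the run printed above, had 933 and 1021 RPM at E16 and 758 and 824 at E17, against 223 and 206 in WT GSCs (1.90 ± 0.10; edgeR, adjusted p = 2.43e-19). Of genes lower in fetal cells, Rpl27a, a large subunit gene with a 20-base run across its start, had 1212 and 1496 RPM at E16 and 949.8 and 928 at E17, against 4195 and 3885 in WT GSCs. All fetal values were far below both WT values (-1.98 ± 0.081; edgeR, adjusted p = 5.74e-22), though under ERCC scaling the sign turned. Rpl10 and Rps3 were lower as well, with log2 fold changes of -1.90 and -1.76, and Rpl11, which together with Rpl5 and the 5S RNA forms a particle that also binds MDM2, had -1.51. Rpl5 itself did not pass the test (0.11; edgeR, adjusted p = 0.164). Cell cycle genes summed to 1309 to 1475 RPM at E16 and 1586 to 1621 at E17, against 4365 to 4467 in WT GSCs, and Sertoli markers to 154 to 194 RPM over both fetal days, against 34.3 to 36.4 in WT GSCs. Their part in the result was not tested.

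**Figure D3:**
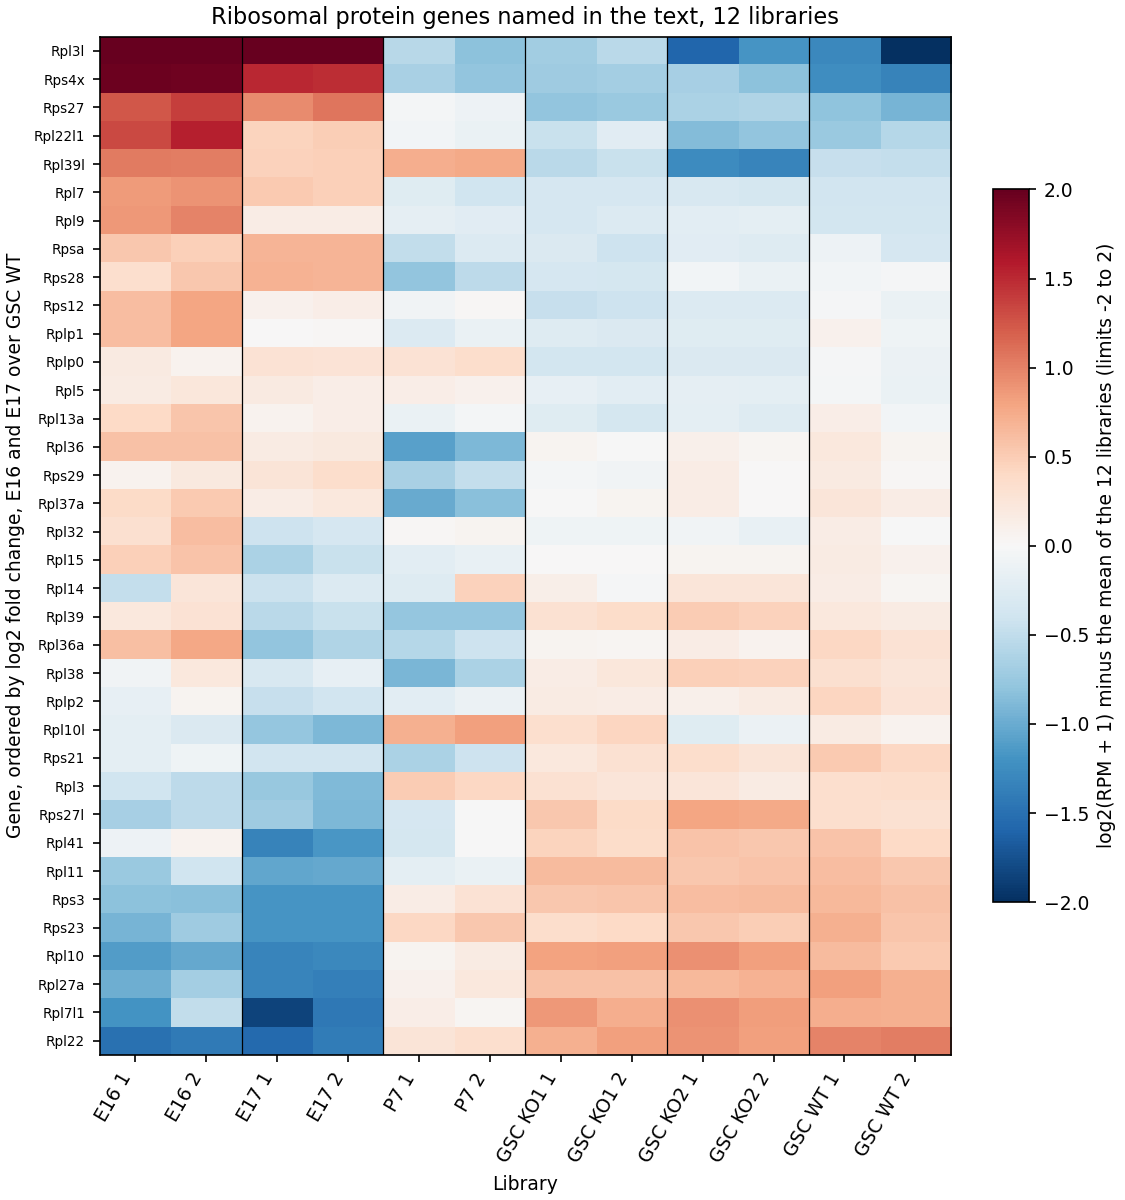
Level of the ribosomal protein genes that the text names (rows; Rpl32l, at 0 in several libraries, is left out) in the 12 libraries (columns), as log2(RPM + 1) minus the gene's mean over the libraries, with genes ordered by their fold change of E16 and E17 over GSC WT. Rows at the top are high in the 4 fetal libraries, rows at the bottom are high in GSCs, and the 6 GSC columns look alike for most genes.

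In cultured cells, the comparison of Stag3 knockout with WT GSCs gave small shifts. Taking the mean of both lines, 35 of the 83 genes tested fell and 3 rose (edgeR), against 10.6% and 8.64% of all tested genes. The members' median was -0.14, and 68 of 83 fold changes were below 0. The count depends on single libraries: 23 fell without KO1 replicate 2, 23 without KO2 replicate 1, 22 without KO2 replicate 2, 23 without WT replicate 1 and 64 without WT replicate 2. With ERCC scaling 8 fell, and the median was below 0 in each of these settings. Rpl13a, a protein known to leave the ribosome in the interferon response, had 2200.2 and 2033 RPM in KO1 and 2272 and 2170.3 in KO2, against 2866 and 2497 in WT. All 4 knockout values lay below both WT values (-0.36 ± 0.057; edgeR, adjusted p = 5.6e-07), and the drop of the knockout mean passed in each of the 14 alternatives, from -0.49 to -0.24. Rps12, a small subunit gene whose 3′ end shares 90.7% of its words with other genes, had 2363 and 2433 RPM in KO1 and 2694 and 2709 in KO2, against 3206 and 2966 in WT, also without overlap (-0.33 ± 0.055; edgeR, adjusted p = 1.71e-06). Rpl36a fell by 0.32 on the log2 scale.

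The stalk protein genes fell together in both lines under TMM scaling. With ERCC scaling none of the 3 was called in KO2, where the 1 gene called lower was Rpl39l. Rplp0 had 2747 and 2725 RPM in KO1 and 2886 and 2883 in KO2, against 3473 and 3265 in WT (-0.31 ± 0.054; edgeR, adjusted p = 4.18e-06). Rplp1 fell by 0.31 (edgeR, adjusted p = 4.33e-06) and Rplp2 by 0.26 (edgeR, adjusted p = 0.000112). None of the 3 genes had a knockout value within the range of WT values. Of the 5S particle, Rpl5 fell by 0.16 (edgeR, adjusted p = 0.0326) and Rpl11 did not pass (-0.034; edgeR, adjusted p = 0.751).

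Rps4x went the other way. It had 593 and 609.6 RPM in KO1 and 615 and 551 in KO2, against 410.0 and 388 in WT, and every knockout library was above both WT libraries. The log2 fold change was 0.54 ± 0.078 in KO1 and 0.50 ± 0.078 in KO2 (edgeR, adjusted p = 5.75e-08 and 3.93e-07), and it passed in every alternative run. Rpl10 and Rps27l rose by 0.21 and 0.25 in the mean of both lines, and missed the threshold in 4 and 5 of 14 alternatives. In KO2 alone the rises were 0.24 and 0.40 (edgeR, adjusted p = 0.00676 and 0.000107). Neither gene passed in KO1, where Rpl10 stood at 0.18 (edgeR, adjusted p = 0.0641). Fibroblast and feeder markers summed to 46.5 to 52.8 RPM in KO1 and 38.1 to 41.7 in KO2, against 95.8 to 96.8 in WT, and cell cycle genes to 4815 to 4831 RPM in KO1 and 4872 to 4922 in KO2, against 4365 to 4467 in WT. Their part in the result was not tested.

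Each line was also read by itself. Against WT, KO1 had 32 genes that fell and 2 that rose, where 7.4% and 6.24% of all genes did, and KO2 had 24 that fell and 4 that rose, where 8.45% and 7.19% did (edgeR). With ERCC scaling 16 fell and 1 rose in KO1, and 1 fell and 2 rose in KO2. The fit of all 12 libraries called 12 lower and 1 higher in KO1, and 7 lower and 2 higher in KO2. In KO1 17 fell without KO1 replicate 1, 12 without KO1 replicate 2 and 64 without WT replicate 2. In KO2 7 fell without KO2 replicate 1, 6 without KO2 replicate 2 and 56 without WT replicate 2. These comparisons share the WT libraries, so they are not independent of each other. The lines were compared directly, which removes WT: 3 genes were higher in KO1, 3 were lower, and 77 did not pass (edgeR), against 0.547% and 0.286% of all genes. Of the 83 fold changes, 67 were below 0, with a median of -0.072, against -1e-04 over all genes. In RPM 52 genes had both KO1 libraries below both KO2 libraries and 8 had both above, against 20.5% of all genes in either direction. The 3 genes called higher were all paralogs. Rpl39l had 306 and 326 RPM in KO1 and 185 and 177 in KO2 (0.80 ± 0.090; edgeR, adjusted p = 3.51e-11), while WT stood at 323 and 319 RPM, so the KO1 libraries lay near WT and the KO2 libraries well below. Rpl10l had 342 and 366 RPM in KO1, 229.9 and 251 in KO2 and 303 and 285 in WT, with a difference between the lines of 0.56 ± 0.087 (edgeR, adjusted p = 3.47e-06). Here WT lay between the lines. Rpl22l1 had 1192 and 1373 RPM in KO1, 889 and 929.8 in KO2 and 969 and 1092 in WT (0.49 ± 0.072; edgeR, adjusted p = 4.06e-07), the highest values being those of KO1. Rps27l, Rpl38 and Rps28 were lower in KO1 than in KO2 (-0.31, -0.28 and -0.25 on the log2 scale), but none of these 3 passed in the fit of all 12 libraries, and the number called lower was 0 with any 1 of the 4 knockout libraries left out.

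Paralogs were then followed against their parents, as reads of the paralog per read of the parent in each library. Read numbers of different genes depend on how well each 3′ end is captured, so only changes of a ratio between groups are read. Rpl39l, a paralog expressed in testis, had 2.41 and 2.27 reads per read of Rpl39 at E16, 2.73 and 2.60 at E17 and 3.88 and 3.94 at P7. In GSCs the ratio was 0.755 and 0.772 in KO1, 0.396 and 0.391 in KO2 and 0.858 and 0.867 in WT. The 6 in vivo libraries were all above the 6 GSC libraries, P7 was the highest group and KO2 the lowest. Both genes moved: against WT GSCs, Rpl39l was higher by 1.08 at P7 and Rpl39 was lower, at -1.10 (edgeR, adjusted p = 1.17e-10), and in KO2 Rpl39l fell by 0.88 while Rpl39 rose by 0.26 (edgeR, adjusted p = 6.44e-14 and 0.0167). The rise of Rpl39 missed the threshold in 6 of 12 alternatives, and that of Rpl39l against WT GSCs at P7 in none of 11.

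The ratio of Rpl22l1 to Rpl22 was 12.5 and 13.8 at E16, 7.18 and 6.61 at E17 and 1.42 and 1.28 at P7, with 0.800 and 0.855 in KO1, 0.525 and 0.577 in KO2 and 0.536 and 0.594 in WT. It was lower at each later time, and the groups in vivo did not overlap. Under TMM scaling Rpl22l1 fell by 1.31 in E17 against E16 (edgeR, adjusted p = 2.13e-05) when Rpl22 did not pass (-0.36; edgeR, adjusted p = 0.0915), and at P7 against E17 Rpl22l1 fell by 0.42 (edgeR, adjusted p = 0.00532) when Rpl22 rose by 1.93, so a different gene of the pair led each step. KO1 stood above KO2 and WT, which overlapped.

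Rpl10l, an intronless paralog of Rpl10 known from spermatocytes, had 0.602 and 0.525 reads per read of Rpl10 at E16, 0.462 and 0.415 at E17 and 0.498 and 0.498 at P7. In GSCs the ratio was 0.229 and 0.241 in KO1, 0.141 and 0.165 in KO2 and 0.228 and 0.231 in WT. All in vivo ratios lay above all GSC ratios and KO2 was the lowest group. Under TMM scaling both Rpl10l and Rpl10 rose at P7 against E17, by 1.76 and 1.57 (edgeR, adjusted p = 2.56e-08 and 4.52e-08). The 3′ ends of Rpl10, Rps27 and Rpl36a are fully shared with other genes, so the ratios to these parents are uncertain.

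For Rps27l and Rps27 the order was the reverse. The ratio was 0.179 and 0.180 at E16, 0.214 and 0.171 at E17 and 0.549 and 0.727 at P7, against 1.71 and 1.48 in KO1, 1.83 and 1.73 in KO2 and 1.51 and 1.60 in WT, so all GSC libraries stood above all in vivo libraries. Rps27l, a p53 target, was lower in fetal cells than in WT GSCs, at -1.17, and Rps27 higher, at 1.90 (edgeR, adjusted p = 9.33e-13 and 2.43e-19). Rpl7l1, a paralog known from assembly of the large subunit, had 0.0079 ± 0.0019 reads per read of Rpl7 at E17, 0.047 ± 0.0012 at P7 and 0.0758 ± 0.0009 in WT GSCs (SD, n = 2). Rpl7l1 and Rpl7 thus moved apart in the same way as Rps27l and Rps27, with Rpl7l1 lower and Rpl7 higher in fetal cells than in WT GSCs (log2 fold changes -2.07 and 0.93). Rpl3l had 46.4 and 48.0 RPM at E16, 62.0 and 50.9 at E17 and 6.59 and 5.27 at P7, against 5.89 and 6.65 in KO1, 2.70 and 3.89 in KO2 and 3.54 and 1.25 in WT. The 4 fetal libraries were far above all others, with 0.0574 ± 0.0049 reads per read of Rpl3 in E16 cells, 0.0871 ± 0.0069 in E17 cells and 0.0038 ± 0.0004 in P7 cells (SD, n = 2), the last on few reads of Rpl3l. Rpl3 was lower in fetal cells than in WT GSCs, at -1.13 on the log2 scale (edgeR, adjusted p = 6.37e-16). Markers of peritubular myoid cells summed to 86.2 to 96.2 RPM at E16, 106 to 117 at E17 and 11.5 to 22 at P7, against 5.99 to 9.54 in WT GSCs, and their part in the level of Rpl3l was not tested.

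**Figure D4:**
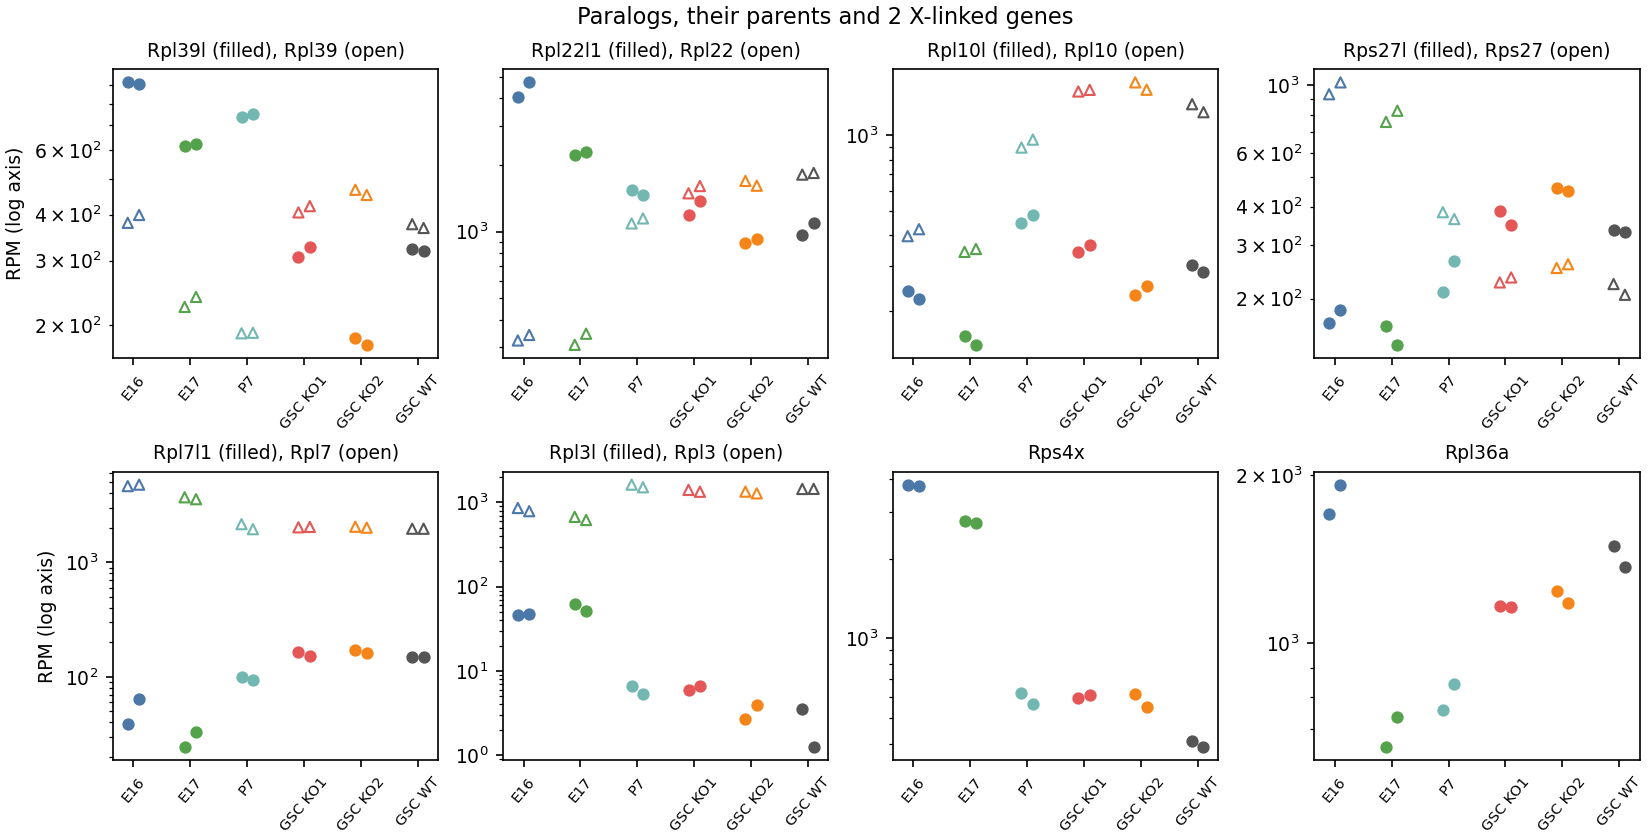
Levels in RPM on a log axis of 6 paralogs (filled circles) with their parents (open triangles) and of the X-linked genes Rps4x and Rpl36a, 1 point per library, grouped by stage and by GSC genotype. The distance between Rpl39l and Rpl39 changes between in vivo and GSC libraries (mean ratio 3.91 at P7 and 0.863 in WT GSCs), and that between Rpl22l1 and Rpl22 shrinks over E16, E17 and P7 (13.2, 6.89 and 1.35).

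The 4 X-linked genes did not share a pattern. Rps4x and Rpl36a were highest at E16, Rpl10 and Rpl39 in GSC KO2. Rps4x had its lowest group mean in WT GSCs, 9.5-fold below E16, Rpl10 at E17, 4.53-fold below KO2 (343 and 352 RPM at E17), and Rpl36a at E17. Rpl39 had 380.0 and 399 RPM at E16, 224 and 239 at E17 and 190.3 and 191 at P7, against 406 and 422 in KO1, 467 and 452 in KO2 and 377 and 368 in WT. It was lowest at P7, and the KO2 libraries were the highest. In KO cells against WT, Rps4x and Rpl10 rose, Rpl36a fell, and Rpl39 did not pass (0.18; edgeR, adjusted p = 0.0581).

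Over the 6 groups the level of a ribosomal protein gene was not constant. The highest group mean exceeded the lowest by a median of 2.22-fold, 53 genes were highest at E16, and 31 were lowest at E17 and 26 at P7, with Rpl32l, at 0 at E17 and in KO2 alike, counted at E17. In 10 genes the range was over 4-fold, among them 4 paralogs (Rpl39l, Rpl22l1, Rpl7l1, Rpl3l) and the parents Rpl22, Rpl10 and Rps27, and Rpl32l could not be given a range because it had no count at E17 or in KO2. Each of the 84 genes passed the test in 2 or more of the 8 comparisons, of which several share libraries. Calls were common among all genes too: 30.2% rose and 37.8% fell at P7 against E17. For E16 and E17 against WT GSCs, 41.9% of all genes rose and 32.3% fell. The share of all genes with 2 or more calls was not counted, so this is not read as a trait of the 84.

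Genes that work with the ribosomal proteins were read from lists. The first held 15 other mRNAs known as TOP mRNAs. Of the 9 in the promoter table, 3 had a C at the annotated start with at least 4 C or T bases after it. Within 5 bases of the start 4 did. The TOP start is thus background for this list and was not found in most of these windows. In knockout against WT GSCs 9 of the 15 passed (edgeR) and all 9 fell, where 10.6% of all tested genes fell and 8.64% rose, led by the elongation factors Eef1a1 and Eef2, with log2 fold changes of -0.45 and -0.44 (edgeR, adjusted p = 4.97e-12 and 2.84e-09). Their median was -0.18, and that of the ribosomal protein genes -0.14. In E17 against E16, 7 of the 15 passed and all 7 fell, where 4.96% of all genes fell, with Hnrnpa1 (-1.04) and Eef1a1 (-0.78) in front, and the median was -0.38. The median of the ribosomal protein genes in that comparison was -0.88. At P7 against E17, 6 rose and 4 fell, where 30.2% of all genes rose and 37.8% fell. This list and those below were read in the main fits only. None of the alternatives, such as ERCC scaling or single libraries left out, was run for them.

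The next list held ribosome biogenesis factors. Of 61 tested, 7 passed in E17 against E16 and all 7 fell, where 4.96% of all genes fell, among them the rRNA methyltransferase Fbl (-0.999), with a median of -0.11. At P7 against E17, 36 rose and 9 fell, where 30.2% of all genes rose and 37.8% fell. The median was 0.70, when the ribosomal protein genes had a median of 0.023. Dkc1, the pseudouridine synthase of small nucleolar particles, rose by 3.597 and Nop58, a core protein of such particles, by 2.53 (edgeR, adjusted p = 3.29e-08 and 9.65e-08). In fetal cells against WT GSCs 44 of the 61 fell and 8 rose, where 32.3% of all genes fell and 41.9% rose, with a median of -0.75. In knockout against WT 5 fell and 3 rose, where 10.6% of all genes fell and 8.64% rose, so these counts did not exceed the background, and the median was -0.016. With ERCC scaling all genes move between the stages, as given above, and these directions were not recomputed under it. Of 16 regulators of growth, Myc rose in knockout GSCs by 2.67 (edgeR, adjusted p = 3.11e-07). Mycn, Mycl, Mtor and Eif4ebp1 fell (-0.66, -0.81, -0.57 and -0.93, with edgeR adjusted p = 5.18e-06 for Mycn). The value of Myc was the least precise of the 5, with an SE of 0.42. That of Mycl was 0.28, of Mycn 0.12, of Mtor 0.088 and of Eif4ebp1 0.091. Of all genes, 8.64% rose and 10.6% fell in that comparison. In fetal cells against WT GSCs 2 of the 16 rose and 9 fell, where 41.9% of all genes rose and 32.3% fell. Those that rose were Mtor (1.31) and Tsc1 (2.38), a subunit of the complex that restrains Rheb, and the falls included Mycn (-5.19) and Rheb (-2.17), the activator of mTOR (edgeR, adjusted p = 6.72e-15, 3.36e-15, 1.33e-20 and 1.19e-12).

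Ribosomal proteins outside the naming rule were set beside them. Fau, Rpl36al and Rack1 fell in E17 against E16 (-0.77, -0.84 and -0.49 on the log2 scale), and the same 3 genes fell at P7 against WT GSCs (-0.36, -0.61 and -0.32), under TMM scaling in both. Rps27rt was too low to test. Rpl36al, the autosomal paralog of Rpl36a, had 0.624 ± 0.0575 reads per read of Rpl36a at E17, against 0.334 ± 0.01 at E16 (SD, n = 2), and 0.521 ± 0.0065 in KO1 and 0.516 ± 0.0132 in KO2, against 0.397 ± 0.0006 in WT. Rpl36al itself did not pass in knockout against WT (0.065; edgeR, adjusted p = 0.538), where Rpl36a fell.

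The counts were also split by start sequence and by uniqueness of the 3′ end. In E17 against E16, 29 of 30 genes with a pyrimidine run within 5 bases of the start fell (median -0.91) and 29 of 34 without one (median -0.86). In knockout against WT the counts were 11 of 29 (median -0.14) and 13 of 34 (median -0.12). At P7 against WT GSCs they were 22 of 30 (median -0.44) and 18 of 34 (median -0.28). Among genes whose last 200 transcript bases share no 50-base word with another gene, 27 of 31 fell in E17 against E16 (median -0.80), against 34 of 34 genes that share over 50% of them (median -0.93), and in knockout against WT 15 of 31 (median -0.13), against 11 of 34 (median -0.12). The differences between these classes were not tested.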

How the data were processed

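RNA was measured by SC3-seq in 12 mouse libraries, 2 in each of 6 groups. Per the labels' protocols, 1 ng of total RNA was reverse transcribed and amplified. The submitters' processing notes name Salmon 1.4.0, HTSeq 0.9.1, TopHat2 2.1.1, cutadapt 1.18 and the build GRCm38.p6. What each tool did, the strand setting and the treatment of reads with several matches were not given in the sources used here. As a table per library, the authors deposited whole read counts per gene without normalization, and only these counts were used. No replicates were pooled.

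The gene list holds 35652 genes for GSC, E16 and E17 and 34896 genes for P7, matched by Entrez ID. The 92 ERCC rows, transgene rows and 13 mitochondrial genes, which are blank at P7, were left out. Tests used edgeR 4.0.16 (quasi-likelihood, TMM, filterByExpr by group, a coefficient per group) with Benjamini-Hochberg adjustment over all genes tested and a threshold of 0.05. The 6 GSC libraries, the 6 in vivo libraries and all 12 were fitted separately, over 11890, 14776 and 15827 genes, and the last gave the comparisons of P7 and of E16 and E17 with WT GSCs. Rpl32l was too low to test among GSCs. Fits were tested on simulated counts.

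The members, the lists and the comparisons were chosen with earlier results of these data known. Named genes were the paralogs and their parents, the X-linked members and, per comparison, the 4 largest rises and 4 largest falls among called members with no overlap between libraries. Stalk, 5S particle and other members outside this rule were added with their values known, and some genes that the rule names are not reported here. Alternatives were median-ratio size factors, TMM without the members, ERCC totals, no filter, DESeq2 1.42.0, a replicate block, addition of pseudogene rows, a fit of all 12 libraries and each library left out in turn. Start windows came from the RefSeq promoter table and transcripts from GENCODE M21, both on the build of the files.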

Additional observations from a re-analysis of the deposited data

Results flagged for a closer look

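Of the 83 genes tested, 6 differed between the knockout lines, by a direct edgeR test of KO1 against KO2. Of all tested genes, 0.547% were higher in KO1 and 0.286% lower. An effect of the knockout and other differences between the lines cannot be told apart by this test. Rpl39l, Rpl10l and Rpl22l1 stood higher in KO1, by 0.80, 0.56 and 0.49 on the log2 scale. For Rpl39l this held in all 12 alternatives, with values between 0.63 and 0.84, and for Rpl10l and Rpl22l1 in all but the one with ERCC totals. Rps27l, Rpl38 and Rps28 stood lower in KO1, with values of -0.31, -0.28 and -0.25, and missed the threshold in 6, 7 and 9 of 12 alternatives. Stag3 itself was higher in KO1 than in KO2 by 1.05.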

How the results depend on the processing

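Of 192 counts of called genes recomputed under alternatives 143 stayed within 1.5 times the value given and 49 did not, and of the values of named genes 591 kept their direction and call, 61 lost the call and 10 reversed. ERCC totals changed most. They gave 1 gene higher and 8 lower for KO against WT, 1 and 16 for KO1 against WT, 2 and 1 for KO2 against WT, 1 and 1 for KO1 against KO2, 83 and 1 for E17 against E16, 0 and 83 for P7 against E17, 2 higher for P7 against WT, and 82 and 0 for E16 and E17 against WT. Medians reversed to 2.16 for E17 against E16 and to -4.66 for P7 against E17. Reversed genes were Rpl36a (1.30), Rpl41 (1.45) and Rpl15 (1.63) for E17 against E16, Rpl22 (-2.75), Rpl7l1 (-2.77) and Rps23 (-2.86) for P7 against E17, and Rpl22 (0.031), Rpl7l1 (0.53), Rpl27a (0.66) and Rpl10 (0.74) for E16 and E17 against WT. The members' median minus that of all genes moved less, from -0.89 to -0.86 and from 0.16 to 0.16 in the first 2 and from -0.13 to -0.15 in the last. The median for P7 against E17 was -0.0065 with median-ratio factors and with DESeq2 and -0.0349 (without P7 replicate 2) to 0.1028 with single libraries left out. That for E16 and E17 against WT was -0.0143 (without WT replicate 2), -0.0078 (without E16 replicate 2) and up to 0.1537. The fit of all 12 libraries gave 1 higher and 16 lower for KO, 1 and 12 for KO1 and 2 and 7 for KO2 against WT, and 0 lower for KO1 against KO2, as did DESeq2. The cause of these changes was not tested.

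With single libraries left out, the number that fell and the number that rose ranged from 22 to 64 and 1 to 4 for KO, 12 to 64 and 1 to 4 for KO1, and 6 to 56 and 2 to 8 for KO2 against WT. They ranged from 0 to 0 and 3 to 3 for KO1 against KO2, 61 to 82 that fell for E17 against E16, 18 to 20 and 25 to 31 for P7 against E17, 39 to 53 and 6 to 8 for P7 against WT, and 30 to 37 and 27 to 39 for E16 and E17 against WT. A library left alone in its group was assumed to vary like the other groups. The replicate block gave 4 higher for KO1 against WT and 46 and 48 lower for KO and KO1. Libraries of the same number did not deviate together, so the numbers were not taken as a pairing. Correlations were -0.005 to 0.113, over the 7113 genes in GSCs and 7758 in vivo that had higher mean levels. The block was not refitted with the other numbering of the WT libraries. With mitochondrial reads in the total the share was 15.5% in KO1, 16.2% in KO2, 17.1% in WT, 23.9% at E16 and 16.3% at E17. No parent of a paralog has a pseudogene row, so that alternative gave no ratio. Depth limits Rpl32l and Rpl3l most, the members with the fewest reads.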
